A study of Danio rerio with 4 samples.

Results

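The ATP-sensitive potassium (K-ATP) channel of zebrafish β-cells was examined through the genes of its subunits, kcnj11 and abcc8. They are the 2 rows, of 22044 genes in the table of normalised counts, that carry these symbols, and both were read in all 4 libraries. kcnj11 encodes Kir6.2, the inwardly rectifying pore subunit. abcc8 encodes SUR1, a regulatory subunit of the ATP-binding cassette family that senses nucleotides and binds sulfonylurea drugs. The channel sets the resting membrane potential of the β-cell: when glucose metabolism raises ATP, the channel closes, the membrane depolarizes, voltage-gated calcium channels open and insulin granules fuse with the membrane. In humans, changes in KCNJ11 and ABCC8 are known causes of neonatal diabetes and of congenital hyperinsulinism.

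The mRNA of sorted pancreatic β-cells of fish aged 3 months was sequenced in 2 libraries per genotype. WT fish carried the reporter labelled Tg(ins:mKO), named Tg(ins:nlsRenilla-mKO2) in the methods, which marks β-cells with an orange fluorescent protein. Tg(ins:il1b) fish carried the same reporter and, in addition, a transgene in which the insulin promoter drives a truncated, mature form of zebrafish il1b with a FLAG tag, marked by mCherry in the lens (cryaa:mCherry). This line descends from a single founder, and only the primary islet was dissected for sorting. The study asked how chronic β-cell inflammation alters the β-cell transcriptome. Whether each library was made from its own animals is not stated in the sources used here, and p-values therefore measure the spread between these libraries, which may be technical.

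The libraries held 28524617 to 35637508 reads in genes. The transgene's gene, il1b, had 11 and 1.9 normalised counts in WT replicates 1 and 2 and 587911 and 423851 in Tg(ins:il1b) replicates 1 and 2. The insulin gene ins led the β-cell markers in all 4 libraries. Of the 8 β-cell markers listed, the zinc transporter gene slc30a8 stayed below 10 normalised counts in all 4 libraries. Markers of other islet cells were also present, and limma called the glucagon gene gcga and the ghrelin gene ghrl higher in Tg(ins:il1b). The α-cell list (4 genes) took 0.075% and 0.0952% of normalised counts in WT against 0.69% and 1.44% in Tg(ins:il1b). The δ-cell list (4 genes) took 0.296% and 0.0061% in WT against 0.164% and 3.72% in Tg(ins:il1b). The δ-cell share was thus highest in Tg(ins:il1b) replicate 2, and it also differed widely between the WT libraries.

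kcnj11 was about 4-fold lower in the sorted β-cell libraries of Tg(ins:il1b) fish than in those of WT. The gene lies on the forward strand of chromosome 25 from 22756170 to 22757315 (GRCz10). Its levels were 1717.5 and 2096.4 normalised counts in WT replicates 1 and 2, and 488.1 and 473.4 in Tg(ins:il1b) replicates 1 and 2. Normalised counts are reads per gene divided by a factor of each library. Both Tg(ins:il1b) libraries lay far below both WT libraries, and the groups did not overlap. The means were 1907 ± 267.9 for WT and 480.8 ± 10.4 for Tg(ins:il1b) (SD, n = 2), so WT was 3.97 times higher. On the log2(value + 1) scale used here and below, limma estimated a change of -1.98 with a standard error of 0.23 and a 95% interval of -2.53 to -1.42 (adjusted p = 0.0204, Benjamini-Hochberg over 18504 genes).

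Counting error was small beside this difference. The kcnj11 values rest on 1870 and 2173 reads in WT and on 483 and 443 reads in Tg(ins:il1b). The exact Poisson 95% intervals were 445.5 to 533.6 and 430.3 to 519.6 normalised counts in the Tg(ins:il1b) libraries, so these 2 libraries were not distinguishable by counting error alone. In WT the intervals, 1641 to 1797 and 2009 to 2186, did not overlap. Such intervals cover counting error only. In rank, kcnj11 moved from the top 9.97% and 8.0% of genes in WT to the top 27.2% and 28.2% in Tg(ins:il1b).

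abcc8 was also lower in both Tg(ins:il1b) libraries, but its libraries differed far more within a genotype, and limma did not call it. The gene lies on the forward strand of chromosome 25 from 22622585 to 22751736 (GRCz10). Its levels were 8450.6 and 12782 normalised counts in WT against 5836.5 and 2388.4 in Tg(ins:il1b). The groups did not overlap, yet Tg(ins:il1b) replicate 1 lay nearer to WT replicate 1 than to its own partner. The means were 10616 ± 3063 and 4112 ± 2438 (SD, n = 2), with WT 2.58 times higher. limma estimated a change of -1.48 on the log2 scale with a standard error of 0.44 and a 95% interval of -2.53 to -0.43 (adjusted p = 0.191). The interval for abcc8 holds the kcnj11 estimate. The abcc8 values rest on 9201, 13249, 5775 and 2235 reads in the same order of libraries, and none of their exact Poisson 95% intervals overlapped.

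**Figure D1:**
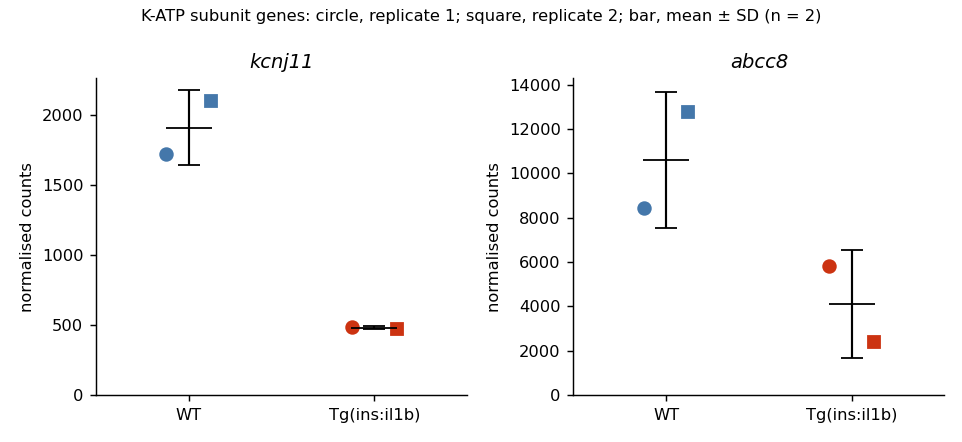
Normalised counts (y axis, from 0) of kcnj11 (left) and abcc8 (right) in WT (blue) and Tg(ins:il1b) (red); circles are replicate 1, squares replicate 2, and bars the mean ± SD of 2 libraries. The Tg(ins:il1b) libraries of kcnj11 sit together at 488.1 and 473.4, whereas those of abcc8 sit apart at 5836.5 and 2388.4.

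Among all 18504 genes tested by limma, 0.530% were called lower in Tg(ins:il1b) at an adjusted p under 0.05, and kcnj11 was the 1 of the 2 subunit genes among them. The same order of groups, with both Tg(ins:il1b) libraries below both WT libraries, held for 22.1% of all genes tested, so this order alone was common. DESeq2, a count test run on the whole reads recovered from the table, called 2.45% of genes lower. It called both subunit genes, kcnj11 with a log2 fold change of -1.99 (adjusted p = 7.60e-10) and abcc8 with -1.37 (adjusted p = 0.0375). The quasi-likelihood test of edgeR called kcnj11 (adjusted p = 0.0249), among the 0.373% of genes that it called lower, and not abcc8 (adjusted p = 0.239). The study named kcnj11 from these same libraries, and both genes were chosen here with earlier results known, so these p-values are not independent evidence of a direction.

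The calls depended on single libraries to a different degree. Left without any one library, limma called 0 or 1 gene in the whole table and lost kcnj11, whose log2 fold change stayed between -2.12 and -1.84. DESeq2 called kcnj11 whichever library was left out, a fit added after the data were seen, with adjusted p between 1.29e-05 and 0.00389. Each fit without a library leaves 1 genotype with a single library, which is assumed to vary like the other genotype and like genes of similar level, so these calls are no independent check of the spread. For abcc8 the estimate itself moved. Its limma log2 fold change was -2.12 without Tg(ins:il1b) replicate 1 and -0.83 without Tg(ins:il1b) replicate 2. DESeq2 no longer called abcc8 without WT replicate 2 (adjusted p = 0.485) or without Tg(ins:il1b) replicate 2 (adjusted p = 0.232).

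The subunits assemble in equal numbers in the channel, so their levels were compared with each other per length of gene model. kcnj11 is annotated as a single block of 1146 bases, equal to its genomic span and to 382 whole codons, and abcc8 as 5764 bases. If the kcnj11 model lacks untranslated parts, reads there were not counted. Per kb, kcnj11 had 1499 and 1829 normalised counts in WT against 425.9 and 413.1 in Tg(ins:il1b). abcc8 had 1466 and 2218 per kb in WT against 1013 and 414.4 in Tg(ins:il1b). The ratio of kcnj11 to abcc8 per kb was 1.02 and 0.825 in WT, then 0.421 and 0.997 in replicates 1 and 2 of Tg(ins:il1b). Only Tg(ins:il1b) replicate 1 departed from a ratio near 1, and the groups overlapped.

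On the log2 scale of counts the ratio of kcnj11 to abcc8 differed by -0.50 between Tg(ins:il1b) and WT (exact permutation test, two-sided, p = 0.667, where 2 against 2 libraries cannot go below 0.333). Without Tg(ins:il1b) replicate 1 the difference was 0.12, with the opposite sign. A change in the balance of the subunit transcripts was therefore not detectable with these libraries.

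The subunit genes were next set against ins and pdx1 of the β-cell list, which need not measure the β-cell content of a library. Of the 6 tested genes of that list, 4 had both Tg(ins:il1b) libraries below both WT libraries, against 22.1% of all genes tested. For mnx1 both lay above, against 22.3%, and pcsk1 overlapped. Ratios to these other markers were not computed, and the outcome may depend on the reference gene. Sorted libraries are bulk RNA, in which fewer β-cells and less RNA per β-cell cannot be told apart. The insulin gene ins changed by -1.18 ± 0.46 (log2, standard error; limma adjusted p = 0.3165), and DESeq2 called it lower (adjusted p = 0.00125). Per 1000 normalised counts of ins, kcnj11 had 0.287 and 0.248 in WT against 0.145 and 0.162 in Tg(ins:il1b). It was thus lower relative to insulin too in both Tg(ins:il1b) libraries. Per 1000 of ins, abcc8 had 1.41 and 1.51 in WT against 1.74 and 0.815 in Tg(ins:il1b), so that the groups overlapped.

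Relative to pdx1, a transcription factor gene of β- and δ-cells, the picture was alike. Per 100 normalised counts of pdx1, kcnj11 had 2.09 and 2.42 in WT against 1.19 and 0.800 in Tg(ins:il1b). abcc8 had 10.3 and 14.8 in WT against 14.2 and 4.04 in Tg(ins:il1b), again overlapping. The differences in log2 ratio were -0.80 for kcnj11 to ins and -1.21 for kcnj11 to pdx1, each with p = 0.333 (exact permutation test, two-sided), the smallest that 2 against 2 libraries allow. For abcc8 they were -0.30 (p = 1) and -0.70 (p = 0.667) by the same exact test.

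The library with the lowest abcc8 value, Tg(ins:il1b) replicate 2, was also the one with the highest levels of several marker lists. Its α-, δ- and ε-cell lists took 1.44%, 3.72% and 0.316% of normalised counts, against 0.69%, 0.164% and 0.0404% in Tg(ins:il1b) replicate 1. The ε-cell list holds 1 gene, ghrl. Most of the δ-cell sum was sst1.1, with 1076219.5 normalised counts in Tg(ins:il1b) replicate 2. The macrophage and leukocyte list (9 genes) took 0.0116% and 0.0482% in WT against 0.0642% and 0.175% in Tg(ins:il1b). Most of this sum was cd74a, with 2264 and 10770.5 normalised counts in WT against 13411.3 and 37922.1 in Tg(ins:il1b). Of 7 tested genes of the list, 5 had both Tg(ins:il1b) libraries above both WT libraries, against 22.3% of all genes tested. csf1ra did not, with 26.6 and 11.6 in WT against 11.1 and 23.5 in Tg(ins:il1b), and cd74b overlapped too. limma called 0 of the 7. DESeq2 called 1 of 8 higher, where it called 4.24% of all genes higher. This gene, named after its values were seen, was mfap4, with 1.8 and 0 in WT against 22.2 and 162.4 in Tg(ins:il1b) (DESeq2 adjusted p = 0.000489). The β-cell list, most of it ins, took 19.1% and 25.1% in WT against 12.1% and 9.89% in Tg(ins:il1b). In mammals, α- and δ-cells express K-ATP channels as well. The part of other cell types in the kcnj11 and abcc8 values was not tested.

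Other lists were low or did not separate the genotypes. The acinar list (14 genes) took 0.00393% and 0.0216% of normalised counts in WT against 0.00749% and 0.0132% in Tg(ins:il1b). The duct list (5 genes), led by the keratin gene krt8, took 0.0455% and 0.0232% in WT against 0.0444% and 0.0807% in Tg(ins:il1b). Endothelial markers (4 genes found) summed to at most 121.3 normalised counts, mural cell markers (4 found) to at most 160.3 and neutrophil markers (2 found) to at most 321.6 in any library.

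**Figure D2:**
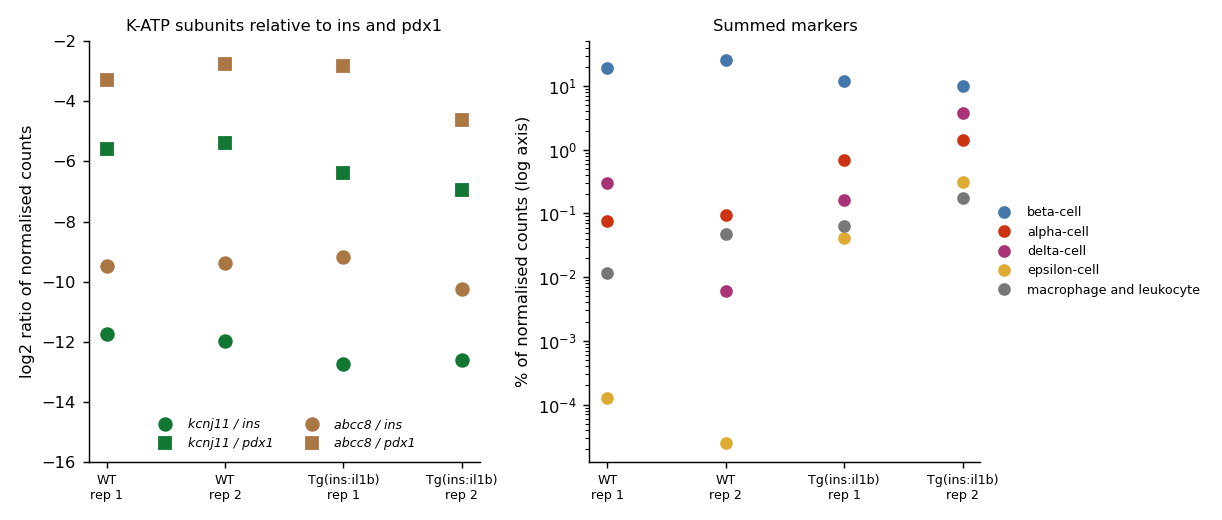
Left, log2 ratio of the normalised counts of kcnj11 (green) and abcc8 (brown) to ins (circles) and to pdx1 (squares) in each library; right, the percent of normalised counts taken by 5 marker lists, on a log axis. Both kcnj11 ratios are lower in both Tg(ins:il1b) libraries, whereas the abcc8 ratios of Tg(ins:il1b) replicate 1 lie within or above the WT range, and replicate 2 has the highest α-, δ- and ε-cell values.

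The subunit genes are neighbours on chromosome 25. The end of abcc8 and the start of kcnj11 are 4433 bases apart on the same strand, with 0 genes of the table between them, and 0 RefSeq genes of the GRCz12tu assembly lie between them either. No other gene of the table overlaps either one. The 2 nearest genes outside the pair did not share a direction. Upstream of abcc8, at 15.9 kb, ush1c, the gene of the scaffold protein harmonin, had 331.6 and 343.5 normalised counts in WT against 847.9 and 770.5 in Tg(ins:il1b). Both Tg(ins:il1b) libraries lay above both WT libraries. The log2 fold change of 1.26 ± 0.25 (standard error) missed the threshold in limma (adjusted p = 0.0759) and passed it in DESeq2 (adjusted p = 0.00136).

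Downstream of kcnj11, at 8.16 kb, mob2a, a gene of the MOB family, had 113.9 and 105.2 normalised counts in WT against 41.4 and 48.1 in Tg(ins:il1b). The estimate of -1.28 ± 0.45 (log2, standard error) was not called by limma (adjusted p = 0.27) or by DESeq2 (adjusted p = 0.223). The phosphatase gene dusp8a, 124.9 kb away, had a log2 fold change of 0.35 (adjusted p = 0.787). The other genes of the table that start within 200 kb of abcc8 or kcnj11, stra6 and islr2, stayed at or under 44.9 normalised counts in every library and did not pass the filter of 10 normalised counts in 2 libraries. Apart from kcnj11, limma called 0 genes in this window, with abcc8, ush1c and mob2a below an unadjusted p of 0.05. DESeq2 called abcc8 and ush1c besides kcnj11. Over all genes tested, 14.4% had an unadjusted p under 0.05 in limma, and DESeq2 called 2.45% lower and 4.24% higher.

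The genome holds a second pair of this kind. abcc9, which encodes SUR2, and kcnj8, which encodes Kir6.1, the subunits of K-ATP channels of vessels in mammals, lie 2966 bases apart on chromosome 4. kcnj8 had 86.3 and 77.2 normalised counts in WT against 209.2 and 292.8 in Tg(ins:il1b), so it was higher in both Tg(ins:il1b) libraries, opposite to kcnj11. The estimate of 1.59 ± 0.38 (log2, standard error) missed the threshold in limma (adjusted p = 0.125), while DESeq2 called it (adjusted p = 0.0106). abcc9 had 131.3 and 168.8 in WT against 131.4 and 164.6 in Tg(ins:il1b). Its groups overlapped, at -0.02 ± 0.38 (log2, standard error, limma adjusted p = 0.993). DESeq2 called 4.24% of all genes higher, and 22.3% of all genes tested had both Tg(ins:il1b) libraries above both WT libraries.

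Further genes of the Kir6 type lie elsewhere on chromosome 25. A gene that the table labels KCNJ11 (1 of many), which starts at 7490260 and ends at 7498248, had 642.9 and 508.4 normalised counts in WT against 555.9 and 485.2 in Tg(ins:il1b), with a change on the log2 scale of -0.14 (adjusted p = 0.886). Its counts did not differ by genotype beyond their spread. kcnj11l, which starts at 7546591 and ends at 7552724, had 23 and 12.5 in WT against 33.4 and 20.3 in Tg(ins:il1b) (adjusted p = 0.80). Sources used here do not say how reads shared by such related genes were assigned, so counts may be split between them. A further gene, abcc8b, was not analysed here.

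Per kb, kcnj11 made up 85.3% and 89.7% of the 4 genes of the Kir6 type in WT against 55.8% and 52.2% in Tg(ins:il1b) (p = 0.333, exact permutation test, two-sided, the smallest possible). Their summed level was 1758 and 2038 normalised counts per kb in WT against 763.9 and 791.8 in Tg(ins:il1b). These values depend on the gene models, of 1146 bases for kcnj11 and 3599 for KCNJ11 (1 of many). Not divided by length, KCNJ11 (1 of many) had 555.9 and 485.2 normalised counts in Tg(ins:il1b), above kcnj11 at 488.1 and 473.4. The share of abcc8 in the pair abcc8 and abcc9 was 98.5% and 98.7% in WT against 97.9% and 93.8% in Tg(ins:il1b), so abcc8 remained the leading gene of the SUR type in all 4 libraries.

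Within the wider families, 13 other kcnj genes and 11 other abcc genes were in the table. Of the 10 and 9 that were tested, limma called 0. Over all genes it called 1.63% in either direction, a share to set beside its counts here and below. Before adjustment, 7.95% of all genes tested were higher and 6.45% lower at p under 0.05, shares against which such counts here and below are to be read. By that measure 3 kcnj genes were higher, 0 were lower, 0 abcc genes were higher and 1 was lower. DESeq2 called kcnj8 and the G protein-gated channel gene kcnj3b higher and the organic anion transporter gene abcc2 lower, names given after their values were seen. Over all genes it called 4.24% higher and 2.45% lower. The most abundant other members were the Kir2.1 gene kcnj2a, with 5419.7 and 1857.2 normalised counts in WT against 1330 and 2800.9 in Tg(ins:il1b), and the nucleotide exporter gene abcc5, with 7254.8 and 11274.1 in WT against 5906.2 and 8036 in Tg(ins:il1b). Neither separated the genotypes. The median log2 fold change was 0.27 for the other kcnj genes, -0.39 for the other abcc genes and -0.0094 for all genes tested. abcc4, another exporter gene, had a log2 fold change of 0.13 (adjusted p = 0.946).

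Proteins that bind the channel in mammals were encoded by 4 tested genes, of which limma and DESeq2 called 0, with 0 higher and 0 lower before adjustment (p under 0.05). The gene stx1a, whose product syntaxin-1A binds SUR1, was at 106.5 and 50.2 normalised counts in WT against 81.9 and 52.4 in Tg(ins:il1b) (adjusted p = 0.948). The Epac2 gene rapgef4, whose product senses cAMP and binds SUR1, had a log2 fold change of -0.44 (adjusted p = 0.592). The ankyrin-B genes, whose mammalian product anchors Kir6.2, had -0.48 for ank2b (adjusted p = 0.586) and 0.91 for the gene labelled ANK2 (adjusted p = 0.483).

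Upstream of the channel, genes of glucose entry and glycolysis were mixed. Over all genes tested, limma called 1.63% in either direction. Of the 31 tested here, limma called 3 lower and 1 higher, and DESeq2 called 4 lower and 2 higher of 32. DESeq2 called 2.45% of all genes lower and 4.24% higher. Of 3 glucose-6-phosphatase genes in this list, whose products release free glucose, g6pcb fell by 3.57 (adjusted p = 0.0406) and g6pca.2 fell by 3.15 on the log2 scale (adjusted p = 0.0284). The WT libraries of g6pcb lay far apart, at 12707.6 and 39926.4 normalised counts, against 1416.9 and 2549.7 in Tg(ins:il1b). The third, g6pca.1, was near the filter at 8.7 to 41.3 normalised counts, and its groups overlapped (adjusted p = 0.986). The pyruvate kinase gene PKLR, of the last step of glycolysis, fell by 1.49 (adjusted p = 0.0443). The glucose transporter gene slc2a3a rose from 570.4 and 488.2 normalised counts in WT to 1329 and 1500.3 in Tg(ins:il1b), with a change on the log2 scale of 1.42 (adjusted p = 0.0482). edgeR kept the call for g6pca.2 alone of these 4 genes, with adjusted p = 0.0538 for g6pcb, 0.0554 for PKLR and 0.0524 for slc2a3a. Named after their values were seen, the glucokinase gene gck, the glucose sensor of the β-cell, had 19231 and 15224 in WT against 17166 and 27658 in Tg(ins:il1b), and the transporter gene slc2a2 had 14320 and 12235 in WT against 10838 and 13035 in Tg(ins:il1b). Neither passed the test (adjusted p = 0.665 and 0.816), and the genotypes overlapped for both.

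Genes that carry pyruvate and ATP between mitochondria and cytosol, or that buffer ATP, were not called. By comparison, limma called 1.63% of all genes in either direction, and DESeq2 called 2.45% lower and 4.24% higher. Beside such shares, 0 calls in lists this short say little. Of 20 tested genes of pyruvate metabolism, shuttles and nucleotide carriers, limma and DESeq2 called 0, with 0 higher and 1 lower before adjustment (p under 0.05). The lower gene, named after its values were seen, was pcxb, with a log2 fold change of -0.71 (limma adjusted p = 0.162). Both Tg(ins:il1b) libraries lay below both WT libraries for 8 of the 20, against 22.1% of all genes tested. They lay above for 0, against 22.3%. The ADP/ATP carrier gene slc25a5, which exports the ATP that closes the channel, had 121075 and 119969 normalised counts in WT against 124406 and 120197 in Tg(ins:il1b), differing by 0.02 ± 0.22 (log2, standard error). The malate dehydrogenase gene mdh2 had a log2 fold change of -0.12 (adjusted p = 0.863). Of 25 genes of nucleotide phosphotransfer and AMP kinase, limma called 0, with 2 higher and 1 lower before adjustment (p under 0.05). DESeq2 called 0 of 23. Named after its values were seen, the adenylate kinase gene ak5 had 8.3 and 100.3 normalised counts in WT against 785.3 and 987.4 in Tg(ins:il1b), and did not pass the test (adjusted p = 0.0918). The creatine kinase gene ckbb had 0.55 (adjusted p = 0.359) and the nucleoside diphosphate kinase gene nme2b.1 had -0.37 (adjusted p = 0.567).

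Downstream of the channel, none of 29 tested subunit genes of voltage-gated calcium channels was called by limma, with 2 higher and 3 lower before adjustment (p under 0.05). Together these 5 of 29 compare with 14.4% of all genes tested. DESeq2 called cacna1ha and cacng5a lower and cacnb4a higher of 31, against 2.45% lower and 4.24% higher over all genes, names given after their values were seen. The most abundant were the accessory subunit gene cacna2d2a, with a log2 fold change of -0.40 (adjusted p = 0.505), and the P/Q-type channel gene cacna1aa, with -0.08 (adjusted p = 0.963). The L-type channel gene cacna1c, also named after its values were seen, had 1128.8 and 1388.3 normalised counts in WT against 885.3 and 649.7 in Tg(ins:il1b) (adjusted p = 0.281). The median of the list was -0.30.

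Of 47 tested potassium channel genes outside the kcnj family, 2 rose and 0 fell in limma, which called 1.63% of all genes in either direction. DESeq2 called 8 higher and 1 lower of 45, where it called 4.24% of all genes higher and 2.45% lower. The accessory subunit gene kcnab2b rose from 125.8 and 82 normalised counts in WT to 703.4 and 655.1 in Tg(ins:il1b), with a change on the log2 scale of 2.73 (adjusted p = 0.0226). The voltage-gated channel gene kcna1b had 7.3 and 3.9 in WT against 118.2 and 135.7 in Tg(ins:il1b) and rose by 4.32 (adjusted p = 0.039). The gene that DESeq2 called lower, named after its values were seen, was the calcium-activated BK channel gene kcnma1a, with 8139.3 and 9139.1 in WT against 4890.5 and 4689.1 in Tg(ins:il1b). Of 18 exocytosis genes, the granuphilin gene sytl4, whose product docks insulin granules, fell by 3.63 on the log2 scale (adjusted p = 0.0183), 0 rose in limma, and DESeq2 called 2 higher and 1 lower. The active zone gene rims2a had a log2 fold change of -0.11 (adjusted p = 0.874).

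Among 20 tested islet transcription factor genes, limma called 0, with 4 higher and 3 lower before adjustment (p under 0.05). By DESeq2, 2 of them were higher and 1 was lower, where 4.24% of all genes were called higher and 2.45% lower. Several factors of this list are known to bind the mammalian Kcnj11 or Abcc8 genes. The most abundant, pdx1, had 82009 and 86540 normalised counts in WT against 41047 and 59139 in Tg(ins:il1b). It differed by -0.77 ± 0.25 (log2, standard error, limma adjusted p = 0.225). The study listed pdx1 among the genes lower in these cells, but DESeq2 did not call it here (adjusted p = 0.11). pax6b had -0.44 (adjusted p = 0.393). The median of the list was -0.13.

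**Figure D3:**
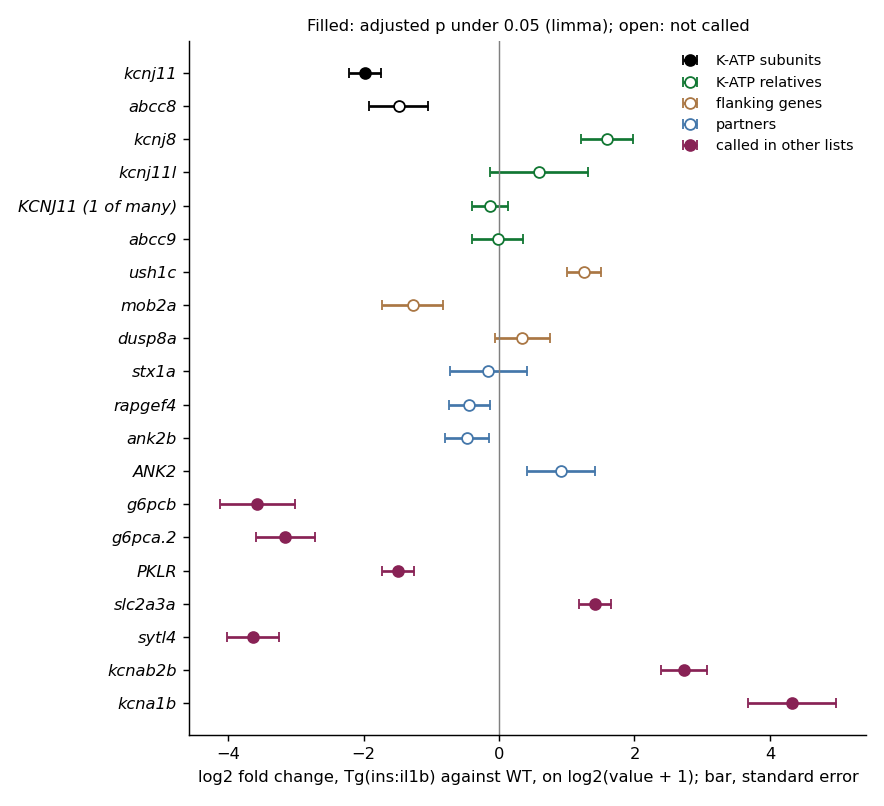
Log2 fold change of Tg(ins:il1b) against WT (x axis, on log2(value + 1), bar = standard error) for the subunit genes, their relatives, the tested genes that flank them, partner genes and the genes called in other lists; filled points have an adjusted p under 0.05 from limma. kcnj11 at -1.98 is called, abcc8 at -1.48 is not, and kcnj8 at 1.59 and ush1c at 1.26 lie on the opposite side.

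The genes with the most similar profile were found by the Euclidean distance between log2(value + 1) profiles, each centred on its own mean over the 4 libraries, among genes with a mean of at least 100 normalised counts. Such distances describe 4 points that share libraries, and many genes lie close. Nearest to kcnj11 was the kinesin gene kif26aa, at 0.089, with 153.4 and 193.9 normalised counts in WT against 45.5 and 40.6 in Tg(ins:il1b). The tight junction gene oclna followed at 0.150, then ENSDARG00000102572 at 0.191, the RNA-binding protein gene rbms3 at 0.207 and the Notch ligand gene jag2b at 0.232.

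abcc8 was not among the nearest genes to kcnj11, with rank 306 of 11723 at a distance of 1.04, where the median distance of all genes was 2.03. In the order of abcc8, kcnj11 had rank 433. Nearest to abcc8 was the cryptochrome gene cry1bb, at 0.110, with 1509.9 and 2409 normalised counts in WT against 1008.6 and 452 in Tg(ins:il1b). It was followed by the Krüppel-like factor gene klf8 at 0.183, the ubiquitin-conjugating enzyme gene cdc34b at 0.254, si:ch211-194p6.11 at 0.256 and si:zfos-411a11.2 at 0.30. As they were picked for a profile like that of abcc8, these genes also had their lowest value in Tg(ins:il1b) replicate 2.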

How the data were processed

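The authors mapped paired-end reads to GRCz10 with GSNAP. They deposited a signal per gene, normalised counts, in which each library is divided by its own factor. How strand was handled, and which counter, normalising tool and GSNAP version were used, is not given in the sources consulted. Division by the value of 1 read brought 100% of values above 0 to within 0.1 of whole reads, the input of DESeq2 1.42.0 and edgeR 4.0.16. The library factors recovered in this way differed from the DESeq2 size factors by at most 2.65e-06 percent. DESeq2 called 1245 genes, the number that the study reported at a false discovery rate under 0.05. Genes with 10 normalised counts in 2 or more libraries were tested with limma 3.58.1 (R 4.3.3), variance trend included, on log2(value + 1), a scale that understates the change of low genes. Per-library differences used exact permutation tests. Scripts were tested on simulated data. Python 3.11.15 and matplotlib 3.10.9 drew the figures.

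The members and the gene lists were chosen with earlier results of these data known. Listed symbols were matched to the table and then to current symbols; where several IDs share a symbol, the most abundant was used. Named genes were both members, ins and il1b, all K-ATP relatives and partners, the limma-called genes of each other list (topped up to 2 by mean level where fewer were called), the called or nearest neighbours, the top marker of a cell type and the 5 genes of most similar profile. Planned promoter motifs were not run, as no sequences were used here. Alternatives were other scalings, filters, pseudocounts, tests, a replicate block and leaving out each library. One further partner gene is not reported here.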

Additional observations from a re-analysis of the deposited data

How the results depend on the processing

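Direction held for both genes under every alternative run. As both Tg(ins:il1b) libraries lay below both WT libraries for each gene, most alternatives, such as leaving out a library, could not reverse it. kcnj11 kept its call with edgeR, DESeq2, both other filters, the larger pseudocount, both other scalings and the replicate block, but not without the variance trend (-1.98, adjusted p = 0.111), nor when limma left out a library (-2.12 to -1.84, adjusted p 0.103 to 0.219). abcc8 passed only with DESeq2 (-1.37), and there without WT replicate 1 (-1.63) and without Tg(ins:il1b) replicate 1 (-2.15), not without the other libraries. The difference in the log2 subunit ratio between Tg(ins:il1b) and WT ranged from -1.12 to 0.12 when a library was left out. Its sign was reversed (0.12) without Tg(ins:il1b) replicate 1. Against 302 genes called in all, DESeq2 called 1245, limma without the variance trend 13, limma without a library 0 to 1 (1644 to 2874 at an unadjusted p under 0.05), and DESeq2 without WT replicate 1, WT replicate 2, Tg(ins:il1b) replicate 1 or replicate 2 called 730, 658, 1224 and 744. Against 7 called genes of the lists, edgeR called 4, DESeq2 27, limma without the trend 0, scaling to library totals 11, the replicate block 11, limma without a library 0 to 0, and DESeq2 without those libraries in turn 15, 13, 20 and 18. Scaling to library totals moved the median of all genes to 0.15 (log2) and the calls to 277 higher and 80 lower, from 204 and 98; the causes of these differences were not tested. The replicate numbers were not shown to pair libraries (correlation of deviations 0.0334), and with the replicate block kcnj11 had -1.98 (adjusted p = 0.0173), abcc8 -1.48 (adjusted p = 0.16) and 437 genes were called. With 2 libraries per genotype, abcc8 had an unadjusted p of 0.0133 and an adjusted p of 0.191 in limma, and an adjusted p of 0.0375 in DESeq2. What limits the test of abcc8 was not tested. The DESeq2 fits without a library were chosen after seeing the data.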
